A study of Mus musculus with 12 samples.

Results

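The growth hormone, STAT5 and IGF axis is described here by 10 genes in the livers of 12 male mice: Ghr, Stat5b, Cish, Socs2, Bcl6, Igf1, Igfals, Igfbp1, Igfbp2 and Igfbp4. The 10 members were chosen by gene symbol, with differences between the groups in these same libraries in view, so that their levels and fold changes are a description and carry no p-value. All 10 were found among the 51912 genes of the count table and the 17859 genes of the transformed table. All 10 were also among the 8594 genes with enough counts to be tested.

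Messenger RNA was sequenced from its 3' ends in the liver of adult mice, in 4 groups of 3. WT mice, with mouse CAR and PXR, received the vehicle corn oil in the first group and CITCO, an activator of human CAR, at 10 mg/kg in the second. In the third group, hCAR/hPXR mice, in which human CAR and PXR replace the mouse receptors, received the same dose, as did the Car KO/hPXR mice of the last group, which lack mouse Car and have human PXR. All mice were injected intraperitoneally each day for 4 days and killed on day 5. The dose is taken from the labels, while the methods of the study also name a higher dose of CITCO for short-term treatment. The modified lines were made on the C57BL/6NTac background, and the labels give neither the strain of the WT mice, nor an age beyond adult, nor what drives the human receptors. No vehicle group of either modified line is among these libraries, so that in these libraries genotype and the response to CITCO cannot be told apart outside the WT mice. The libraries of WT mice given corn oil held 2341572, 1451214 and 1600713 counts in replicates 1 to 3, and those of WT mice given CITCO held 1577720, 1654448 and 1370357. In hCAR/hPXR mice the totals were 2012820, 1726056 and 1167027, and in Car KO/hPXR mice 1499517, 1255188 and 1172227. Levels are given as CPM, counts relative to library size after scaling by the TMM method. In libraries made from 3' ends they are compared between samples. Between genes they serve only to name the most abundant of a list, meaning the highest mean CPM, and to sum a list. In such sums the genes of highest CPM weigh most.

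Growth hormone binds its receptor on hepatocytes, and the kinase JAK2 then phosphorylates STAT5, which enters the nucleus and switches on target genes. Among these are Igf1, the hormone that carries much of the growth response, Igfals, which holds IGF in a stable complex in blood, and the inhibitors Cish and Socs2, which shut the signal off again. Growth hormone is released in pulses in male rodents and more evenly in females, and the sex bias of many liver genes follows from this, while Igfbp1 answers mainly to insulin and fasting.

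Genotype could be checked library by library, because only mouse genes were counted. Nr1i2, the gene for mouse PXR, was counted 199, 100 and 155 times with corn oil in the WT line and 114, 113 and 126 with CITCO. The hCAR/hPXR libraries held 0, 1 and 0, and the Car KO/hPXR libraries 2, 0 and 0. Nr1i3, the gene for mouse CAR, had counts of 287, 104 and 215 with corn oil, 184, 116 and 207 in WT mice with CITCO, 2, 0 and 6 in hCAR/hPXR mice and 3, 2 and 5 in Car KO/hPXR mice. Each of the 12 libraries thus went with its label at both genes. These genes separate WT from modified mice, but not the modified lines from each other, nor corn oil from CITCO in WT mice. Tomm40l overlaps Nr1i3 on the opposite strand, so that a few counts of Nr1i3 are uncertain. Cyp2b10, a P450 gene induced through CAR, had counts of 281, 288 and 184 in hCAR/hPXR mice and at most 6 in each of the other 9 libraries. Tissue was checked as well: the 8 hepatocyte markers (Trf, Alb and Ttr highest) summed to between 39830 and 56680 CPM in each library, and none of them was at 0.

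Across the 10 genes the 4 groups gave different profiles. Against WT mice given corn oil, WT mice given CITCO had higher Cish and Socs2 and lower Bcl6, Igf1 and Igfbp1 without overlap, of which Cish alone met the threshold described below. Bcl6 was as low in Car KO/hPXR mice. In hCAR/hPXR mice Cish and Socs2 lay at the level of the corn oil mice, Igf1 and Ghr had the lowest group means, and Igfbp1 had the highest. Car KO/hPXR mice had means between those of WT CITCO and hCAR/hPXR mice at Cish and Igfbp1 and had the lowest Igfals. The plot of CPM by group shows each library.

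**Figure D1:**
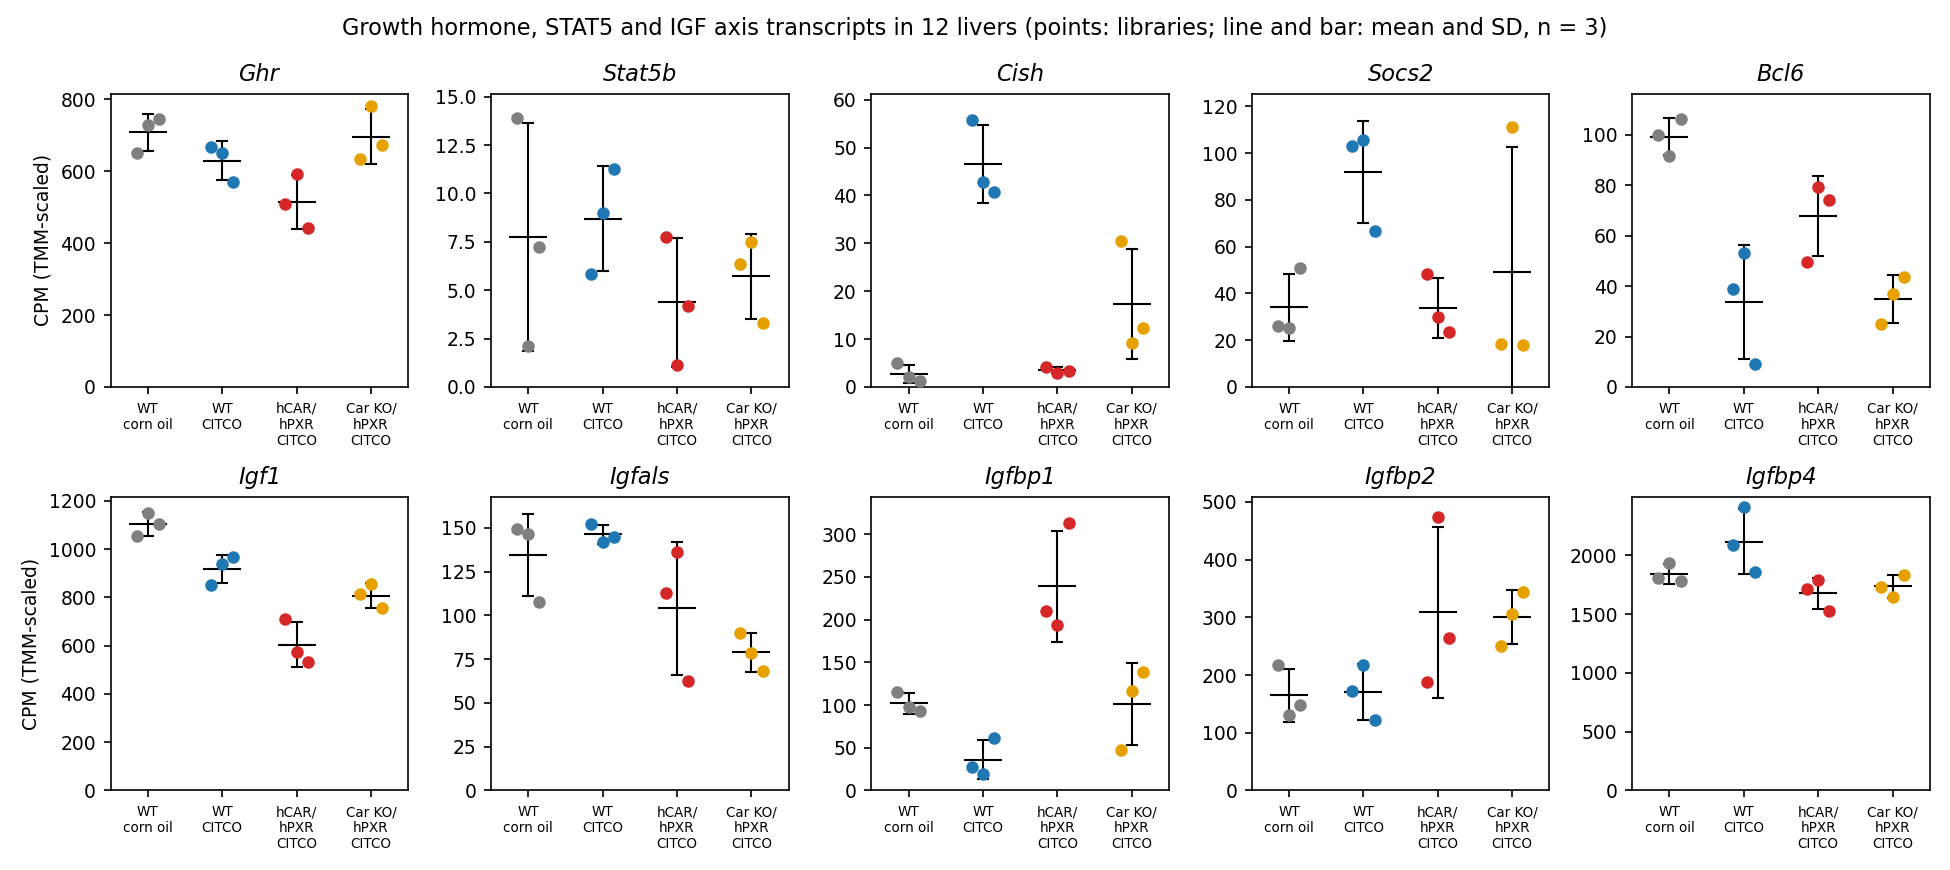
Level of the 10 members in CPM (vertical axis, from 0) in each of the 4 groups. Points are libraries, the horizontal line is the mean and the bar is the SD (n = 3 mice per group); Cish lay between 40.8 and 55.8 CPM in WT mice given CITCO and at or under 4.93 CPM in corn oil and hCAR/hPXR mice.

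Ghr (ENSMUSG00000055737, chromosome 15 of GRCm38, 3317760 to 3583492) encodes the growth hormone receptor. It was counted between 443 and 782 CPM in the 12 libraries. The mean was 708 ± 51.4 CPM in corn oil mice, 629 ± 53.4 in WT mice given CITCO, 514 ± 75.3 in hCAR/hPXR mice and 696 ± 76.3 in Car KO/hPXR mice (SD, n = 3 each). The hCAR/hPXR libraries lay below all corn oil and all Car KO/hPXR libraries and overlapped those of WT mice given CITCO. The log2 fold change of hCAR/hPXR mice was -0.29 (SE 0.16) against WT mice given CITCO and -0.46 (SE 0.16) against corn oil. Neighbouring groups in the order of means overlapped in each case. Livers were analysed whole, so that fewer cells of a type and less RNA per cell cannot be told apart for Ghr or any other gene described here.

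Stat5b (ENSMUSG00000020919, chromosome 11, 100780731 to 100850724), the form of STAT5 that carries most of the growth hormone signal in liver, was near the limit of detection. Its counts were 31, 3 and 12 with corn oil, 9, 13 and 16 in WT mice with CITCO, 15, 2 and 5 in hCAR/hPXR mice and 10, 9 and 4 in Car KO/hPXR mice. All groups overlapped. A count of 3 corresponded to 1.34 CPM in the deepest library and to 2.5 CPM in the shallowest, and the SE of the log2 fold changes of Stat5b lay between 0.59 and 0.68, so that a difference of that size would not be detectable at this depth. Transcript levels say nothing of the phosphorylation through which STAT5 acts.

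Cish (ENSMUSG00000032578, chromosome 9, 107296026 to 107302784) encodes a SOCS protein that STAT5 induces and that blocks further STAT5 activation at the receptor. Its promoter is shown because Cish had the largest log2 fold change of the members in 3 of the 4 comparisons, all but Car KO/hPXR over WT CITCO, and because it holds the STAT5 consensus. The promoters are from RefSeq on GRCm38.p6, where 9 of the 10 members had an entry, with 15 entries in all; Socs2 had none. In each entry 300 bases were searched on both strands for the STAT5 motif TTCNNNGAA, for CAAAACA, found in insulin response elements, and for GTAAACA, bound by forkhead factors. No matches of different motifs overlapped in the members. The STAT5 motif was found in 8.3% of the 32851 promoters of that length. Counted by gene, with any of its entries, it was found in 9.55% of 27025 genes and in 3 of the 9 members, Bcl6, Cish and Igfals. In the Cish promoter (chr9:107296409-107296678, plus strand, 270 bases, the last 20 from the start site on) 2 matches lie at the start site, in capitals in the line that follows.
Cish: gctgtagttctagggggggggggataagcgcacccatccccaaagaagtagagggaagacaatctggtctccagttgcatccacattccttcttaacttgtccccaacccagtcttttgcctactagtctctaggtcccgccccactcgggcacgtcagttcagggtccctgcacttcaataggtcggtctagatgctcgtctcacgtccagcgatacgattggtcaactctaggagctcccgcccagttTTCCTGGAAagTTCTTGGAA

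Counts of Cish were 11, 3 and 2 in corn oil mice and 86, 62 and 58 in WT mice given CITCO. In hCAR/hPXR mice they were 8, 5 and 4, and in Car KO/hPXR mice 48, 11 and 15. As CPM these were 4.93, 2.12 and 1.21 with corn oil, 55.8, 42.9 and 40.8 with CITCO in WT mice, 4.15, 2.89 and 3.34 in hCAR/hPXR mice and 30.5, 9.19 and 12.3 in Car KO/hPXR mice. The libraries of WT mice given CITCO were the highest and did not overlap with any other group, Car KO/hPXR mice came next, and corn oil and hCAR/hPXR mice overlapped at the bottom. Within the Car KO/hPXR group replicate 1 lay far above the other 2 libraries. The log2 fold change was 3.94 (SE 0.46) for WT CITCO over corn oil, -3.71 (SE 0.45) for hCAR/hPXR over WT CITCO, -1.38 (SE 0.37) for Car KO/hPXR over WT CITCO and -2.33 (SE 0.49) for hCAR/hPXR over Car KO/hPXR. The first, second and last met the threshold used over all genes, an adjusted p under 0.05 and a fold over 1.5. The first and second held with any 1 library left out, and the first was 4.77 without corn oil replicate 1. The last did not hold without hCAR/hPXR replicate 1 (-2.51), 2 (-2.20) or 3 (-2.31) or without Car KO/hPXR replicate 1 (-1.61) or 3 (-2.52). Without Car KO/hPXR replicate 1 the third was -2.10 and met the threshold, as it did without the filter on low counts and with the replicate block. Without that filter several times as many genes were called over the whole table in each comparison, which applies to each later mention of that fit. Gm17041 and Gm17040 overlap Cish on the opposite strand, so that its counts are uncertain where reads were not separated by strand.

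Socs2 (ENSMUSG00000020027, chromosome 10, 95385362 to 95417180), the other feedback inhibitor that STAT5 induces and a brake on body growth, was at 26.0, 25.4 and 50.7 CPM with corn oil and 103, 106 and 66.8 CPM in WT mice with CITCO. It was at 48.2, 30.1 and 23.4 CPM in hCAR/hPXR mice and at 18.4, 111 and 18.1 CPM in Car KO/hPXR mice. As at Cish, the 3 WT libraries with CITCO lay above all corn oil and all hCAR/hPXR libraries. A single Car KO/hPXR library, replicate 2, was the highest of all 12, while the other 2 were the lowest, and replicate 2 was not the library that was high at Cish. The log2 fold changes were 1.44 (SE 0.49) for WT CITCO over corn oil, -1.41 (SE 0.49) for hCAR/hPXR over WT CITCO and -0.93 (SE 0.49) for Car KO/hPXR over WT CITCO, and none met the threshold in the fit described. Without the filter on low counts, where far more genes were called over the whole table, all 3 met it. In a fit of only the 2 groups compared, chosen after seeing the data, hCAR/hPXR over WT CITCO met it. Without Car KO/hPXR replicate 2 the last was -2.33 and met it, and the log2 fold change of hCAR/hPXR over Car KO/hPXR turned from -0.48 to 0.91.

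Bcl6 (ENSMUSG00000022508, chromosome 16, 23965052 to 23988852) encodes a transcriptional repressor that binds many of the same sites as STAT5 in male liver and is itself lowered by growth hormone. The promoter with the most STAT5 motifs among the members is one of its 2 entries (chr16:23981284-23981533, minus strand, the 250 bases before the start site), with 3 matches in capitals.
Bcl6: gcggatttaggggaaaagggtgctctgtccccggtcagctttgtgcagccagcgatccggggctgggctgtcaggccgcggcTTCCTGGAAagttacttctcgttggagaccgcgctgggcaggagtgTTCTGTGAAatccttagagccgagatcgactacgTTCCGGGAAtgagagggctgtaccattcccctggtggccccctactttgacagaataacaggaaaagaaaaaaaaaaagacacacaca

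At Bcl6 the corn oil libraries held 99.9, 91.7 and 106 CPM and the WT CITCO libraries 38.92, 53.2 and 9.15. The hCAR/hPXR libraries held 49.7, 79.3 and 74.2 CPM and the Car KO/hPXR libraries 24.8, 36.7 and 43.5. Corn oil mice were the highest group and overlapped with none. The hCAR/hPXR mice lay above all Car KO/hPXR mice, and WT mice given CITCO overlapped with both of these groups, with replicate 3 the lowest of the 12 libraries. The log2 fold change was -1.55 (SE 0.36) for WT CITCO over corn oil, 0.99 (SE 0.36) for hCAR/hPXR over WT CITCO, 0.03 (SE 0.39) for Car KO/hPXR over WT CITCO and 0.96 (SE 0.37) for hCAR/hPXR over Car KO/hPXR. None met the threshold in the edgeR fit described, while without the filter on low counts the first, second and last met it, and DESeq2 called the first. Without WT CITCO replicate 3 the first was -1.11, the second 0.55 and the third -0.41. Gm37419 overlaps Bcl6 on the opposite strand, and its share of the counts is uncertain.

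Igf1 (ENSMUSG00000020053, chromosome 10, 87858265 to 87937042) encodes the hormone that liver releases under growth hormone. It was at 1054, 1152 and 1104 CPM in corn oil mice and 853, 938 and 966 CPM in WT mice given CITCO. The hCAR/hPXR mice had 711, 573 and 531 CPM and the Car KO/hPXR mice 815, 854 and 755 CPM. The 3 corn oil libraries were the highest and the 3 hCAR/hPXR libraries the lowest, with no overlap with any other group, and the other groups overlapped with each other between them. Against corn oil the log2 fold change was -0.26 (SE 0.15) in WT mice given CITCO, -0.45 (SE 0.15) in Car KO/hPXR mice and -0.87 (SE 0.15) in hCAR/hPXR mice. For hCAR/hPXR over WT CITCO it was -0.60 (SE 0.15), and over Car KO/hPXR -0.42 (SE 0.15); neither met the threshold in any edgeR fit, while DESeq2 called the first (-0.62). Igf1os overlaps Igf1 on the opposite strand, at its 5' end.

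Igfals (ENSMUSG00000046070, chromosome 17, 24865997 to 24882010) encodes the acid-labile subunit, which binds IGF1 together with an IGF-binding protein in blood. Levels were 150, 147 and 108 CPM with corn oil, 152, 142 and 145 CPM in WT mice with CITCO, 113, 137 and 62.6 CPM in hCAR/hPXR mice and 90.2, 78.5 and 68.2 CPM in Car KO/hPXR mice. The Car KO/hPXR libraries lay below every WT library, with either treatment, and overlapped with the hCAR/hPXR libraries through the low hCAR/hPXR replicate 3. Over WT CITCO the log2 fold change was -0.89 (SE 0.23) in Car KO/hPXR mice and -0.48 (SE 0.22) in hCAR/hPXR mice, and the latter was -0.24 without hCAR/hPXR replicate 3. Neither met the threshold in the edgeR fit described. The first was called by DESeq2, by edgeR without the filter on low counts, and in the fit of only the 2 groups compared, chosen after seeing the data.

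Igfbp1 (ENSMUSG00000020429, chromosome 11, 7197782 to 7202546) encodes a binding protein that takes IGF out of reach of its receptor and that insulin represses. The motif CAAAACA was found in 6.28% of all promoters, or 7.2% of genes, and in Igfbp1 alone among the 9 members. GTAAACA was found in 3.65% of all promoters, or 4.05% of genes, and among the members in Igfals. The Igfbp1 promoter (chr11:7197537-7197786, plus strand, the 250 bases before the start site) holds the match in capitals.
Igfbp1: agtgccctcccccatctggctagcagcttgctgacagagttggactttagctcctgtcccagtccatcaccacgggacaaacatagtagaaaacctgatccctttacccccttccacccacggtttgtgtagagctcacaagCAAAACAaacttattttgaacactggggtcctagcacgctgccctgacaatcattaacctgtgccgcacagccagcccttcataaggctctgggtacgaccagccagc

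In the libraries Igfbp1 was at 116, 97.3 and 93.0 CPM with corn oil and at 27.2, 19.4 and 61.9 CPM in WT mice with CITCO. The hCAR/hPXR libraries held 210, 193 and 314 CPM and the Car KO/hPXR libraries 47.7, 117 and 139 CPM. The 3 hCAR/hPXR libraries were the highest of the 12. Corn oil mice lay above WT mice given CITCO without overlap, and Car KO/hPXR mice overlapped with both, with replicate 1 below WT CITCO replicate 3. The log2 fold change of hCAR/hPXR over WT CITCO was 2.72 (SE 0.37), which met the threshold, also with any 1 library left out, and was 3.34 without WT CITCO replicate 3. Against corn oil the log2 fold change was 1.22 (SE 0.33) in hCAR/hPXR mice and -1.50 (SE 0.37) in WT mice given CITCO, so that these groups lay on opposite sides of the corn oil level. The log2 fold change of Car KO/hPXR over WT CITCO was 1.47 (SE 0.37) and over corn oil -0.03 (SE 0.34), and that of hCAR/hPXR over Car KO/hPXR was 1.25 (SE 0.34). These did not meet the threshold where they were tested. Without WT CITCO replicate 3, WT CITCO over corn oil (-2.12) and Car KO/hPXR over WT CITCO (2.09) met it, and the latter also without Car KO/hPXR replicate 1 (1.82). Without the filter on low counts the 3 tested comparisons that had not met it did so, and with the replicate block WT CITCO over corn oil did.

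Igfbp2 (ENSMUSG00000039323, chromosome 1, 72824503 to 72852474) and Igfbp4 (ENSMUSG00000017493, chromosome 11, 99041244 to 99054392) encode the other binding proteins among the members. Igfbp2 ranged from 131 to 217 CPM in corn oil mice, from 122 to 218 in WT mice given CITCO, from 189 to 473 in hCAR/hPXR mice and from 251 to 343 in Car KO/hPXR mice. Car KO/hPXR mice lay above both WT groups without overlap, and hCAR/hPXR mice overlapped with all of them, with replicate 2 the highest. Over WT CITCO the log2 fold change was 0.81 (SE 0.28) in Car KO/hPXR mice and 0.86 (SE 0.28) in hCAR/hPXR mice, the latter 0.40 without hCAR/hPXR replicate 2. Igfbp4 ranged from 1528 to 2408 CPM. It was highest in WT mice given CITCO, which lay above both modified lines without overlap, with log2 fold changes of -0.34 (SE 0.16) in hCAR/hPXR and -0.29 (SE 0.16) in Car KO/hPXR mice. None of these met the threshold, but both changes of Igfbp2 did without the filter on low counts.

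**Figure D2:**
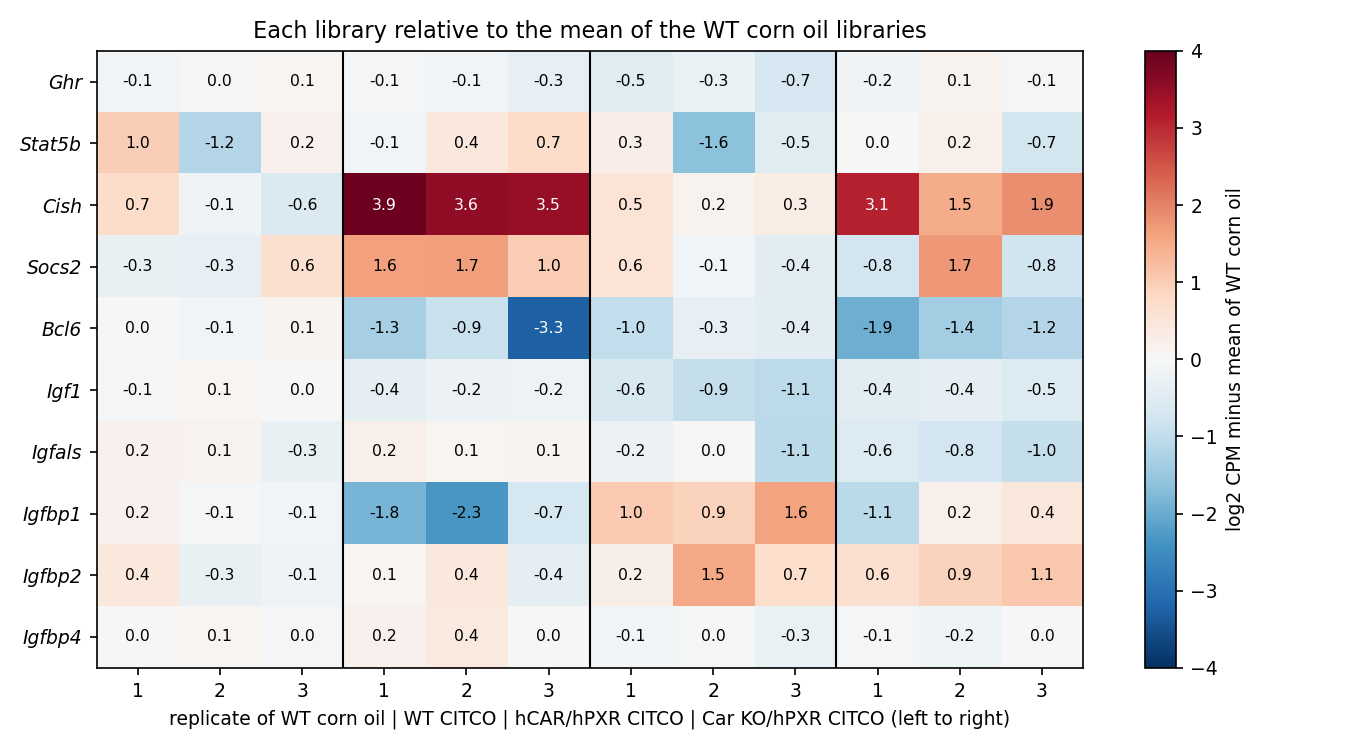
Each library of the 10 members as log2 CPM minus the mean of the 3 corn oil libraries (colour and number; rows are genes, columns are replicates 1 to 3 of each group). The Cish cells of WT mice given CITCO and the Igfbp1 cells of hCAR/hPXR mice are high in all 3 replicates, while Socs2 in Car KO/hPXR mice is high in 1 of 3.

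The comparison of WT mice given CITCO with WT mice given corn oil sets CITCO against its vehicle in mice with mouse CAR and PXR. Whether these receptors carry the differences was not tested. Of the 10 members 1, Cish, was called higher and 0 lower, where 0.233% of all genes tested were called. The 2 groups did not overlap at 5 members, Cish and Socs2 (higher) and Bcl6, Igf1 and Igfbp1 (lower), where 14.7% of all genes tested did not overlap. The median log2 fold change of the members was 0.068, with 6 above and 4 below 0, and that of all genes tested was -0.00028.

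The comparison of hCAR/hPXR with WT mice, both given CITCO, sets the human receptors against the mouse receptors and is the one the study reports. Igfbp1 was called higher and Cish lower, 2 of 10 members, where 0.407% of all genes tested were called. The groups did not overlap at 6 members, Igfbp1 (higher) and Cish, Socs2, Igf1, Igfals and Igfbp4 (lower), where 13.6% of all genes tested did not overlap. The median was -0.41 for the members, with 3 above and 7 below 0, and 0.013 for all genes tested.

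For Car KO/hPXR over WT CITCO 0 of 10 members were called by edgeR, where 0.256% of all genes tested were called; 4 members, and 9.3% of all genes tested, had an unadjusted p under 0.05, a count given as a description, and DESeq2 called 1, Igfals. The groups did not overlap at 4 members, Igfbp2 (higher) and Cish, Igfals and Igfbp4 (lower), where 14.2% of all genes tested did not overlap. The median was -0.24 for the members and -0.0040 for all genes tested.

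Human PXR is common to hCAR/hPXR and Car KO/hPXR mice, so that their comparison sets human CAR against the lack of CAR. Cish was called lower, 1 of 10 members, where 0.582% of all genes tested were called. The groups did not overlap at 5 members, Bcl6 and Igfbp1 (higher) and Cish, Igf1 and Ghr (lower), where 15.1% of all genes tested did not overlap. The median was -0.21 for the members and 0.013 for all genes tested. The comparisons share groups, WT mice given CITCO being part of 3 of the 4, so that a library which stands apart enters several of them. The members were chosen on these contrasts, and nothing is read from the counts against those of all genes.

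**Figure D3:**
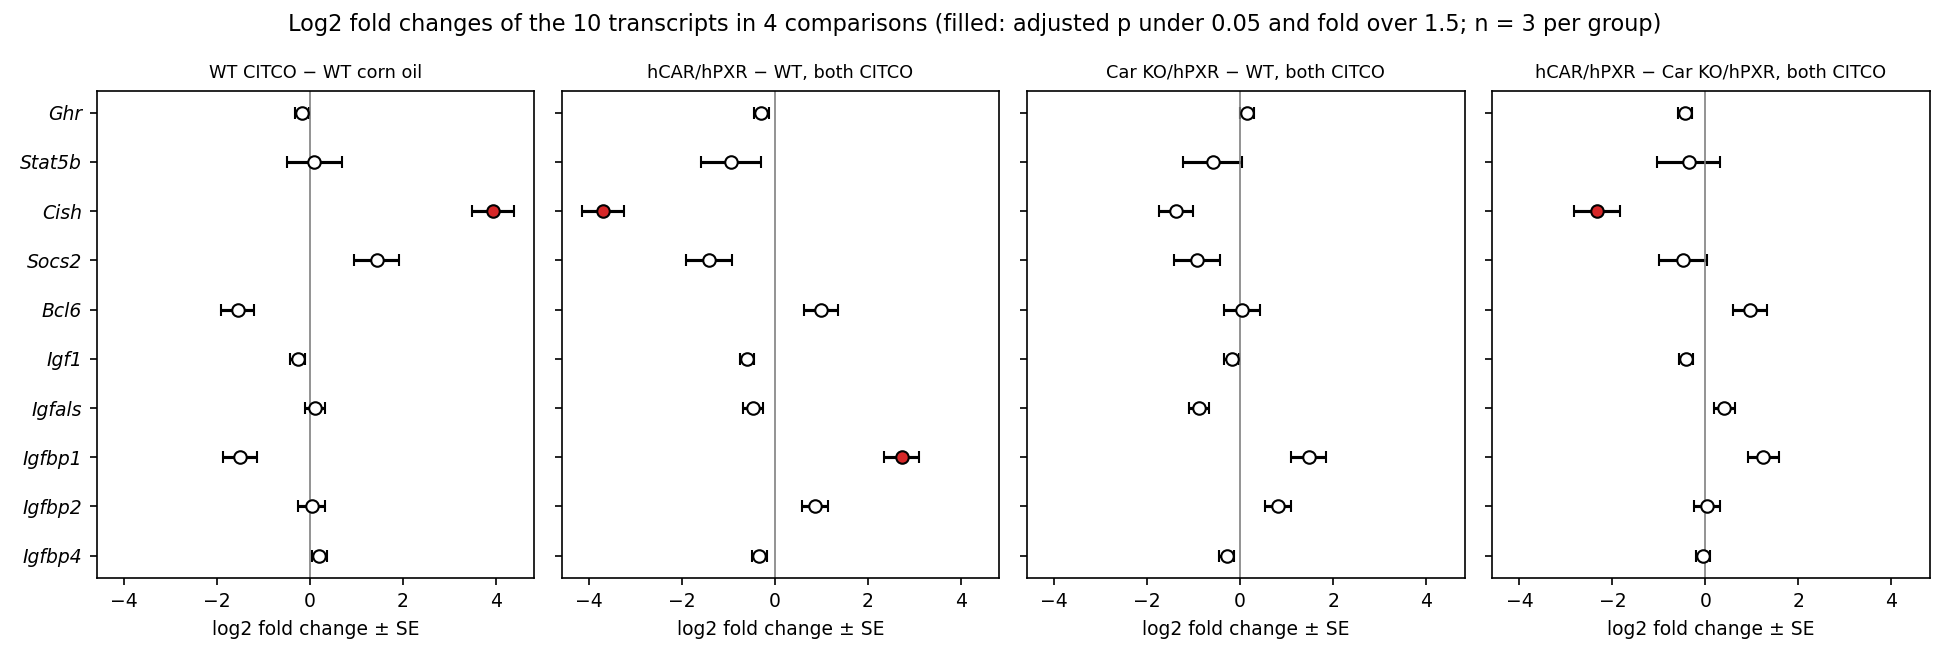
Log2 fold change (horizontal axis) of each member in the 4 comparisons, with its SE as bar (n = 3 mice per group). Filled points met an adjusted p under 0.05 and a fold over 1.5; Cish is at 3.94, -3.71, -1.38 and -2.33 from left to right, and Igfbp1 at -1.50, 2.72, 1.47 and 1.25.

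Other genes of growth hormone receptor signalling (kinase, STATs, SOCS proteins, phosphatases and adaptors) were described from a list of 14, of which 11 were tested; the other 3 had too few counts. By edgeR 0 of the 11 were called in each of the 4 comparisons. At an unadjusted p under 0.05 there were 3 for WT CITCO over corn oil, 2 for hCAR/hPXR over WT CITCO, 2 for Car KO/hPXR over WT CITCO and 5 for hCAR/hPXR over Car KO/hPXR. Of all genes tested 9.13%, 8.81%, 9.3% and 10.6% had such a p in the same order, and these shares are the background of each such count that follows. DESeq2 called 1 gene, Stat3, in the last. The lists, like the members, were chosen with earlier results of these data known. Nothing is read from the counts of any list against those of all genes. The list medians in the same order were -0.0082, -0.079, -0.22 and 0.25 on the log2 scale, beside -0.00028, 0.013, -0.0040 and 0.013 for all genes tested. The most abundant were Stat3, which carries the signal of interleukin-6, Prlr, the prolactin receptor, and Ptpn11, a phosphatase. Stat3 was at 137, 90.8 and 124 CPM in hCAR/hPXR mice and between 56.5 and 86.3 CPM in the other 9 libraries, so that it did not overlap. Its log2 fold change was 0.57 over WT CITCO and 0.77 over Car KO/hPXR mice, where the adjusted p was 0.0691 by edgeR; without hCAR/hPXR replicate 2 it was 0.93 and met the threshold. Prlr ranged from 34.1 to 121 CPM and Ptpn11 from 36.9 to 64.2 CPM.

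Of 14 further genes of the IGF family (ligand, receptors, substrates, binding proteins and their proteases) 5 were tested. Stc2, Pappa and Pappa2 had a count of 0 in all 12 libraries. By edgeR 0 of the 5 were called in each comparison, as by DESeq2, and at an unadjusted p under 0.05 there were 0, 1, 2 and 0 in the order used above (8.81% to 10.6% of all genes). Insr, the insulin receptor, was the most abundant and ranged from 65.0 to 128 CPM, followed by Igf2r, the receptor that clears IGF2, from 20.5 to 65.0 CPM, and Igfbp7 from 25.1 to 56.3 CPM.

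Sex-biased liver genes read out the pattern of growth hormone release, and lists of 17 male-biased and 19 female-biased genes were examined. All 17 male-biased genes were tested and 0 were called by edgeR in each comparison. At an unadjusted p under 0.05 there were 1, 2, 6 and 7 of 17 in the order used above, beside 9.13%, 8.81%, 9.3% and 10.6% of all genes, and DESeq2 called 2, Serpina1e and C6, lower in Car KO/hPXR than in WT mice given CITCO. The list medians were 0.12, -0.21, -0.31 and 0.20. The most abundant were Mup20 and Mup3, major urinary proteins, and Serpina1e, a protease inhibitor. Mup and Serpina1 genes have close paralogues, between which reads are divided by estimate, so that the level of a single one is uncertain. Mup20 held 5257, 16140 and 10450 CPM in Car KO/hPXR mice and between 8865 and 20240 CPM in the other 9 libraries. Summed over the list the levels were 39140, 42750 and 34440 CPM with corn oil, 42520, 56040 and 33130 in WT mice with CITCO, 39430, 38640 and 35940 in hCAR/hPXR mice and 22300, 42030 and 33320 in Car KO/hPXR mice. Car KO/hPXR replicate 1 had the lowest sum, and all groups overlapped. Without WT CITCO replicate 3, 5 male-biased genes were called lower in Car KO/hPXR than in WT mice given CITCO: Serpina1e (-1.20), C6 (-1.22), Cyp7b1 (-1.41), Selenbp2 (-1.63) and Ugt2b38 (-3.73), of which all but Serpina1e are named after their values were seen. Over all genes that fit called 58, against 22 with all libraries.

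Of the 19 female-biased genes only 5 had enough counts to be tested, and Cyp2b13, Cyp3a41b and Sult2a1 had a count of 0 in all 12 livers. By edgeR 0 of the 5 were called in each comparison, as by DESeq2, and at an unadjusted p under 0.05 there were 0, 2, 2 and 2 of 5 (8.81% to 10.6% of all genes). Cyp17a1, a steroid hydroxylase, was the most abundant and lay between 4.93 and 50.8 CPM; all hCAR/hPXR and all Car KO/hPXR libraries were above all WT CITCO libraries, with log2 fold changes of 1.5 and 2.11 that did not meet the threshold (adjusted p = 0.504 and 0.21 by edgeR). In each line 1 library was far above the other 2, hCAR/hPXR replicate 3 (36.7 CPM beside 9.84 and 8.68) and Car KO/hPXR replicate 1 (50.8 beside 10.9 and 16.43). Acot3, named after its values were seen, had -2.13 and -1.86 in these comparisons with overlap, and the list medians were -0.20, -0.70, -0.58 and -0.27. Trim24 and Abcd2 stayed at or under 14.8 and 12.7 CPM. The sum of the list lay between 26.6 and 87.1 CPM in all libraries, and the genes not tested had too few counts for a comparison.

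For Igfbp1, which fasting raises and insulin lowers, a list of 12 genes that answer to insulin and fasting was examined, of which 11 were tested. By edgeR 0 were called in each comparison, as by DESeq2, and at an unadjusted p under 0.05 there were 2, 1, 2 and 4 of 11 in the order used above (8.81% to 10.6% of all genes). The list medians were -0.090, -0.071, 0.27 and 0.0065. Pck1, the key enzyme of gluconeogenesis, was at 3154, 2354 and 2183 CPM with corn oil and 1887, 2012 and 1819 CPM in WT mice with CITCO. The hCAR/hPXR mice had 2067, 2842 and 1445 CPM and the Car KO/hPXR mice 1351, 2634 and 2246 CPM. Corn oil mice lay above WT mice given CITCO at Pck1, as they did at Igfbp1, while hCAR/hPXR mice overlapped with the other groups. Cebpb (1.11) and Irs2 (0.28), named after their values were seen, were higher in hCAR/hPXR than in WT CITCO mice without overlap and did not meet the threshold. Tat, which breaks down tyrosine, ranged from 203 to 437 CPM, and G6pc, which releases glucose, from 35.0 to 154 CPM with the 3 hCAR/hPXR libraries below the 3 Car KO/hPXR libraries. The mice were housed with food at will, and neither the labels nor the methods say whether it was withdrawn before death; the part of feeding in the level of Igfbp1 was not tested.

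**Figure D4:**
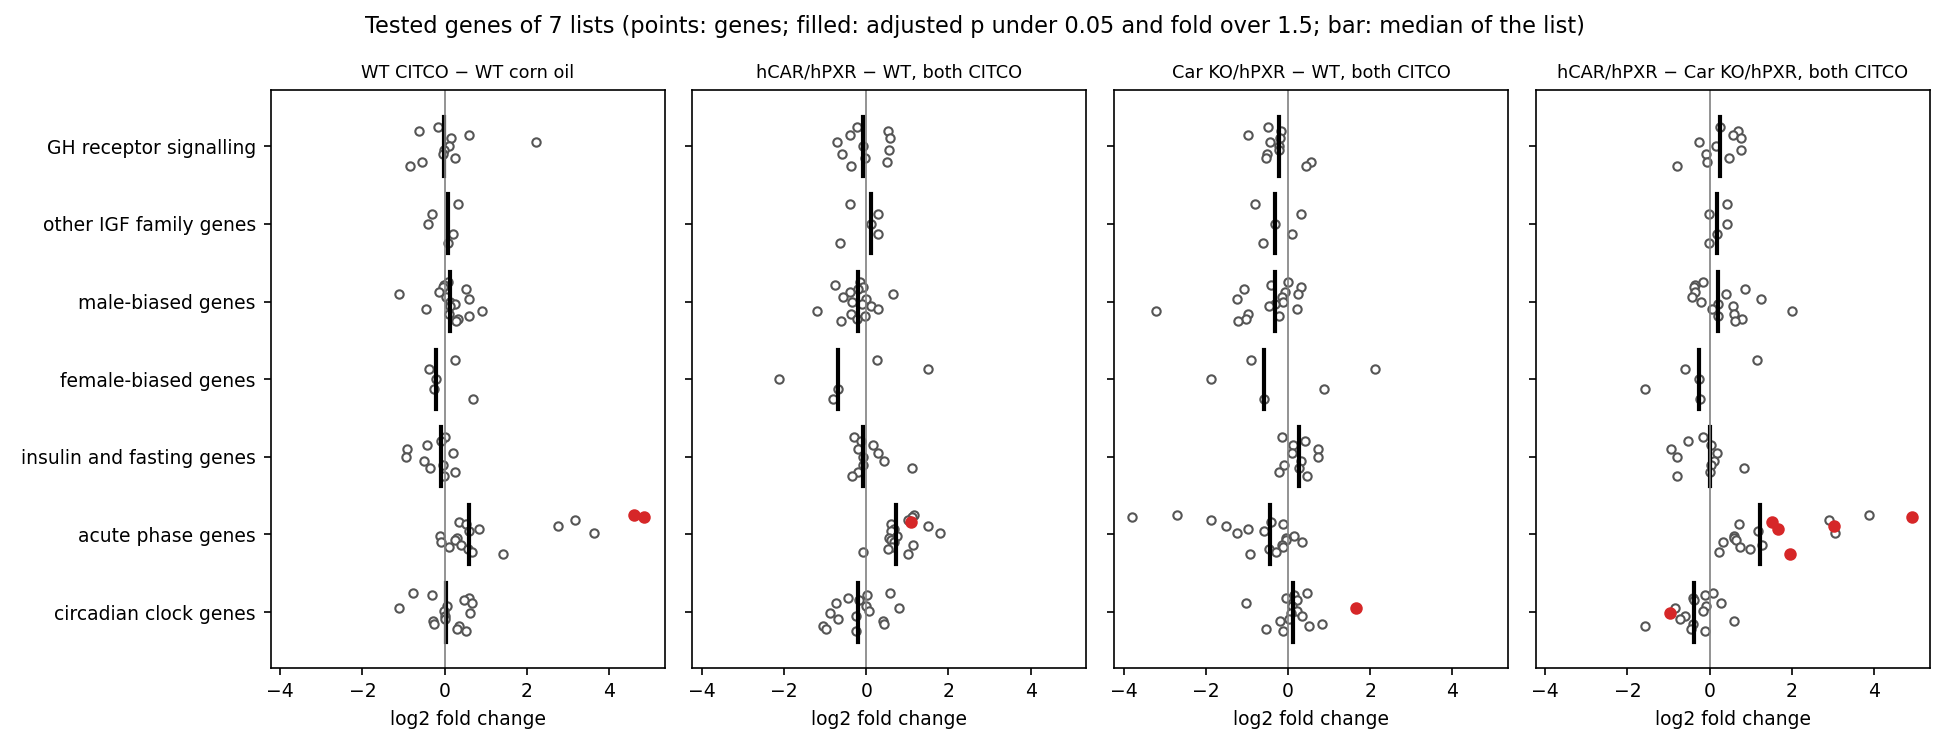
Log2 fold change (horizontal axis) of the tested genes of 7 lists in the 4 comparisons; points are genes and black bars list medians. Filled points met an adjusted p under 0.05 and a fold over 1.5, and the acute phase medians were 0.59, 0.71, -0.44 and 1.22 from left to right.

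Inflammation lowers growth hormone signalling in liver and raises acute phase genes, of which 18 were listed and tested. Fgg and Fga, which encode fibrinogen chains, and Hp, haptoglobin, were the most abundant. The list summed to 12410, 12510 and 10640 CPM with corn oil, 21090, 18090 and 12530 in WT mice with CITCO, 38520, 18700 and 26760 in hCAR/hPXR mice and 12960, 14840 and 12560 in Car KO/hPXR mice. The hCAR/hPXR libraries lay above all corn oil and Car KO/hPXR libraries, and WT CITCO replicate 3 stayed near the corn oil mice. By edgeR 2 were called higher in WT CITCO than in corn oil mice, 1 higher in hCAR/hPXR than in WT mice given CITCO, 0 in Car KO/hPXR against WT mice given CITCO and 5 higher in hCAR/hPXR mice with Car KO/hPXR as the reference; 0 were called lower. At an unadjusted p under 0.05 there were 10, 14, 6 and 16 of 18, beside 9.13%, 8.81%, 9.3% and 10.6% of all genes, and DESeq2 called 2, 4, 2 (Saa2 and Hp, lower) and 10. This list too was chosen with earlier results of these data known, so that the shares are a description only.

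Saa2, a serum amyloid A gene, was at 956, 476 and 24.6 CPM in WT mice given CITCO and between 8.45 and 27.3 CPM with corn oil, a log2 fold change of 4.84 (adjusted p = 0.0264 by edgeR), and its neighbour Saa1 had 4.6 (adjusted p = 0.0494 by edgeR). In both genes replicate 3 fell within the corn oil range, and the calls were lost without either of the other 2 WT CITCO libraries or any corn oil library, with log2 fold changes between 3.89 and 5.53 for Saa2 and between 4.04 and 5.31 for Saa1. In the fit of only the 2 groups compared, chosen after seeing the data, Saa1 was not called either. Saa4 was 1.08 higher in hCAR/hPXR than in WT mice given CITCO on the log2 scale (adjusted p = 0.0484 by edgeR), in 3 of 3 libraries. That call was lost without any WT CITCO library and without hCAR/hPXR replicate 1 or 2 (0.82 to 1.24), and also with the size factors of DESeq2 and in the fit of only these 2 groups. Over Car KO/hPXR mice the 5 genes called were Saa2 (4.92, adjusted p = 0.0131), Saa4 (1.51, adjusted p = 0.00502), Orm2 (3.02, adjusted p = 0.0412), Hp (1.66, adjusted p = 0.00601) and Steap4 (1.96, adjusted p = 0.0181), all by edgeR and all without overlap. Without Car KO/hPXR replicate 3 none of the 5 was called, with log2 fold changes of 1.36 for Saa4 and 1.66 for Hp. Orm2 was also lost without hCAR/hPXR replicate 1 or 3 or Car KO/hPXR replicate 1 or 2 (2.06 to 3.68 over all 5 fits), and DESeq2 did not call it. Saa2 was also lost without hCAR/hPXR or Car KO/hPXR replicate 1 (3.87 to 4.95 over 3 fits), and Steap4 without hCAR/hPXR replicate 1 or 3 or Car KO/hPXR replicate 1 (1.73 to 2.06 over 4 fits). Other single libraries held the counts down: without WT CITCO replicate 3, 4 acute phase genes were called over corn oil and 3 lower in Car KO/hPXR than in WT CITCO mice, and without hCAR/hPXR replicate 2, 12 were called over Car KO/hPXR and 2 over WT CITCO mice. Of all genes 54, 58, 58 and 32 were called in these 4 fits, against 20, 22, 50 and 35 with all libraries. Serum amyloid genes are close paralogues, so that the share of each is uncertain. The acute phase sum was high in the hCAR/hPXR mice, in which Igf1 was low, and in replicates 1 and 2 of WT mice given CITCO. Its part in the levels of Igf1, Cish and the other members was not tested.

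Growth hormone pulses and the hour of death can both move liver transcripts, and 16 of 18 circadian clock genes were tested. By edgeR 1 was called for Car KO/hPXR over WT CITCO, Nr1d1, a repressor of the clock, at 88.3, 145 and 126 CPM against 22.7, 34.6 and 56.3 CPM (log2 fold change 1.66, adjusted p = 0.0298). The call was lost without Car KO/hPXR replicate 2 or 3 or WT CITCO replicate 1 or 2 (1.39 to 1.62). Dbp, a clock output gene, was lower in hCAR/hPXR mice than where Car was absent, at 43.0, 73.5 and 50.9 CPM against 104, 92.7 and 130 CPM (log2 fold change -0.96, adjusted p = 0.039 by edgeR). This call was lost without replicate 1 or 3 of either group (-1.0 to -0.80) and in the fit of only the 2 groups, chosen after seeing the data. In the other comparisons 0 were called by edgeR, and DESeq2 called Dbp for hCAR/hPXR over WT CITCO. At an unadjusted p under 0.05 there were 3, 3, 2 and 5 of 16 in the order used above, beside 9.13%, 8.81%, 9.3% and 10.6% of all genes. Without hCAR/hPXR replicate 2, 3 clock genes were called lower than in Car KO/hPXR mice and 1, Dbp (-1.14), lower than in WT CITCO mice, and without WT CITCO replicate 3 Nr1d1 (-1.50) was called lower in WT CITCO than in corn oil mice. Over all genes these fits called 58, 32 and 54, against 50, 35 and 20 with all libraries. The list medians were 0.043, -0.21, 0.11 and -0.39 in the order used above. Tef and Nr1d2, the others of the 3 most abundant, ranged from 194 to 513 CPM and from 74.0 to 117 CPM. The hour of death is not given in the labels, and its part in the members' levels was not tested.

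Markers of the cell types of liver were compared as whole lists. In each comparison edgeR called 0 of 8 hepatocyte, 8 Kupffer cell, 8 endothelial, 6 stellate cell, 5 red blood cell and 1 cholangiocyte markers tested, as did DESeq2. At an unadjusted p under 0.05 there were at most 2 of a list in a comparison (8.81% to 10.6% of all genes), other than 3 of 5 red blood cell genes for hCAR/hPXR over WT CITCO. Hepatocyte markers, the cells that express Igf1, Igfals and Igfbp1, summed to 56320, 50260 and 48210 CPM with corn oil, 47720, 52830 and 55480 in WT mice with CITCO, 39900, 39830 and 56680 in hCAR/hPXR mice and 52530, 48020 and 48710 in Car KO/hPXR mice. The lowest sums were in hCAR/hPXR replicates 1 and 2, and the lowest Igf1 was in hCAR/hPXR replicate 3, where the sum was the highest of the 12. Alb was at 20010 CPM in that library and at 7649 and 9498 CPM in hCAR/hPXR replicates 1 and 2. The high sum thus leaned on 1 gene. No marker of the 7 cell type lists was at 0 in all 12 libraries. Kupffer cell markers (Cd5l, C1qa and Clec4f highest) summed to between 278 and 563 CPM, with the 3 hCAR/hPXR libraries (563, 480 and 425) above every corn oil and Car KO/hPXR library. Cd5l, with a mean of 230 CPM in hCAR/hPXR mice, made up the largest part of that sum. Clec4f had a mean of 40.9 CPM in both modified lines and 49.0 CPM with corn oil. Of the 8 Kupffer cell genes 5 were higher and 3 lower in hCAR/hPXR than in WT CITCO mice. Over Car KO/hPXR mice 6 were higher and 2 lower, and 1 of the 8 did not overlap. Endothelial markers (Kdr, Clec4g, Dnase1l3) summed to between 217 and 288 CPM, with the 3 hCAR/hPXR libraries the lowest of the 12 (217, 244 and 238). By gene, 7 of the 8 were lower in hCAR/hPXR than in WT CITCO mice. Against Car KO/hPXR mice 5 were higher and 3 lower, with a median log2 fold change of 0.0895. Stellate cell markers (Dcn, Reln, Rgs5), cells that also make IGF-binding proteins, summed to between 206 and 408 CPM. Red blood cell genes (Hba-a2, Hbb-bs, Hba-a1) summed to between 1859 and 3985 CPM. All 5 were lower in hCAR/hPXR than in WT CITCO mice, with a median log2 fold change of -0.54 beside 0.013 for all genes, and each overlapped. Cholangiocyte markers (Sox9, Spp1, Epcam) summed to between 12.7 and 27.5 CPM. The part of these cells in the members' levels was not tested.

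Leukocyte markers summed to 44.6, 40.5 and 57.6 CPM in hCAR/hPXR mice and to between 7.39 and 20.9 CPM in the other 9 libraries. S100a8, an abundant neutrophil gene, was at 15, 25.5 and 28.4 CPM in hCAR/hPXR mice and at most 5.85 CPM elsewhere. Its log2 fold change was 2.54 over WT CITCO (adjusted p = 0.00961 by edgeR) and 2.16 over Car KO/hPXR mice (adjusted p = 0.0242 by edgeR), in 3 of 3 libraries. The first call was lost without hCAR/hPXR replicate 2 or 3 or WT CITCO replicate 3 (2.26 to 2.45), the second without hCAR/hPXR replicate 2 or 3 or any Car KO/hPXR library (1.98 to 2.26), and DESeq2 gave no adjusted p for S100a8. S100a9, its partner, was at 18.1, 6.94 and 18.3 CPM in hCAR/hPXR mice and at most 5.01 CPM elsewhere. Ptprc stayed at or under 10.8 CPM in all libraries. In hCAR/hPXR mice it overlapped with WT CITCO mice and lay above all corn oil libraries. It also lay above all Car KO/hPXR libraries, but narrowly (7.521 against 7.515 CPM). Cd3e and Cd79a, named after their values were seen, were too low to be tested and at or under 0.579 CPM in hCAR/hPXR mice, so that the sum rested mostly on S100a8 and S100a9. Whether these markers bear on Igfbp1 or Igf1, which set the same 3 libraries apart, was not tested.

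Genes with a pattern like that of a member were taken from all genes tested, by Pearson's r of log2 CPM over the 12 libraries, as a description without a test; r also takes in the differences between groups on which the members were chosen. Most like Cish were Foxa2 (r = 0.937), Phlda1 (0.924), Foxq1 (0.884), Rnpepl1 (0.884) and Mis12 (0.861). Foxa2, a forkhead factor of hepatocytes, had means of 22.7 CPM with corn oil, 49.5 in WT mice with CITCO, 20.7 in hCAR/hPXR mice and 44.7 in Car KO/hPXR mice. Phlda1 had means of 48.8, 169, 44.9 and 85.0 CPM in the same order, and Foxq1, another forkhead gene, of 47.4, 164, 49.0 and 89.5 CPM. In both, as in Cish, WT mice given CITCO had the highest mean and Car KO/hPXR mice the next. Most like Igfbp1 were Ddx18 (r = 0.932), Tlr3 (0.892), Setdb1 (0.858), Zfp207 (0.845) and Eef1d (0.844). Their group means were highest in hCAR/hPXR mice and lowest in WT mice given CITCO in each case, as with 11.4 and 5.24 CPM for Ddx18. Most like Igf1 were Gpd1 (r = 0.915), Apol7a (0.911), Rdh16 (0.868), Pithd1 (0.867) and Fam25c (0.852), each with its highest mean in corn oil and its lowest in hCAR/hPXR mice. Gpd1, an enzyme that links glycolysis to glycerol, had means of 342 and 217 CPM in these groups, and Apol7a 104 and 44.1 CPM.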

How the data were processed

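Messenger RNA of 12 livers was sequenced from 3' ends (Lexogen QuantSeq, Ion Torrent). The authors trimmed the reads with Trimmomatic 36, aligned them with STAR 2.5.2, and deposited expected counts per gene by RSEM 1.3. They also deposited values on a log2 scale from the variance-stabilising transformation of DESeq2, used here for gene symbols and as an alternative. Expected counts were rounded and fitted with edgeR 4.0.16, which uses limma 3.58.1, under R 4.3.3, and DESeq2 1.42.0 served as an alternative: TMM scaling, edgeR's filter on low counts, 1 mean per group over all 12 libraries, and the quasi-likelihood test, adjusted by Benjamini-Hochberg over the 8594 genes tested. A gene was called at an adjusted p under 0.05 and a fold over 1.5. The SE of a log2 fold change was derived from its F statistic. The test was run on simulated counts as well. Libraries held 1167027 to 2341572 counts, which limits precision for genes of low level.

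The members and lists were chosen with earlier results of these data known, so that members have no p-value. Genes named are the 10 members, every listed gene called in any of the 4 comparisons, the 3 listed genes of each list with the highest mean CPM, Nr1i2, Nr1i3 and Cyp2b10, and the 5 genes most like each of Igfbp1, Cish and Igf1. Beyond this rule, genes that overlap a named gene and listed genes with a count of 0 in all libraries are named, and other listed genes only as named after their values were seen. Alternatives were size factors of DESeq2 in edgeR, DESeq2's Wald test, no filter, a replicate block and leaving out each library; a fit of only the groups compared and the deposited log2 values were added after seeing the data. Coordinates are from GENCODE M21, another release than the authors' annotation. No pathway test was run.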

Additional observations from a re-analysis of the deposited data

How the results depend on the processing

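The members called in the hCAR/hPXR and WT CITCO comparison (2) and in WT CITCO against corn oil (1), Cish in both and Igfbp1 in the first, kept their calls in every edgeR alternative; DESeq2 gave no adjusted p for Cish in the first, nor in Car KO/hPXR against WT CITCO. Without the filter on low counts 5 and 4 members were called in these comparisons, 5 in Car KO/hPXR against WT CITCO and 3 in hCAR/hPXR against Car KO/hPXR, and genes called over the whole table numbered 184, 179, 227 and 233 in the same order. DESeq2 called 63, 42, 69 and 96 genes, and of the members 2 (Igf1, Igfbp1), 2 (Cish, Bcl6), 1 (Igfals) and 1 (Cish) in that order. With the replicate block 33, 20, 24 and 53 genes were called in that order, with 2 members (Cish, Igfbp1) in WT CITCO against corn oil and 1 (Cish) in Car KO/hPXR against WT CITCO, where 20 and 22 genes were called without the block. Replicate numbers were not taken to pair the mice. The correlations of same-numbered libraries within a comparison lay between -0.0505 and 0.075, below the limit of 0.1 set for pairing. They were all above 0 in hCAR/hPXR against WT CITCO (0.00847 to 0.034) and in Car KO/hPXR against WT CITCO (0.0304 to 0.075). These values do not tell a weak pairing from none, and they give the block little basis. In the fit of only the groups compared, chosen after seeing the data, 33 genes and 3 members (Cish, Socs2, Igfbp1) were called in hCAR/hPXR against WT CITCO, 40 genes and 1 member (Igfals) in Car KO/hPXR against WT CITCO, and 58 genes and 0 members in hCAR/hPXR against Car KO/hPXR. In WT CITCO against corn oil that fit called Cish alone among the members. The cause of these changes was not tested.

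Leaving out 1 library gave 17 to 32 genes and 2 members in every fit in hCAR/hPXR against WT CITCO, 6 to 54 genes and 1 to 2 members in WT CITCO against corn oil, 5 to 58 genes and 0 to 2 members in Car KO/hPXR against WT CITCO, and 10 to 58 genes and 0 to 1 members in hCAR/hPXR against Car KO/hPXR. The highest counts of genes were reached without WT CITCO replicate 3 in WT CITCO against corn oil and in Car KO/hPXR against WT CITCO, and without hCAR/hPXR replicate 2 in hCAR/hPXR against Car KO/hPXR. Cish was the only member called in hCAR/hPXR against Car KO/hPXR, and of these fits it was still called only without Car KO/hPXR replicate 2. In the deposited log2 values, also added after seeing the data, the direction of each called member was the same, with smaller differences at Cish (1.63, -1.54 and -0.72 for WT CITCO over corn oil, hCAR/hPXR over WT CITCO and over Car KO/hPXR) and 2.09 for Igfbp1 in hCAR/hPXR over WT CITCO. At counts as low as those of Cish in corn oil and hCAR/hPXR mice, depth limits the size of a fold.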
